A study of Mus musculus with 47 samples.

Results

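The genes described here are the replication-dependent core and linker histone genes of the mouse, as far as they appeared in libraries made from polyadenylated RNA. Members were the gene symbols beginning with Hist1h, Hist2h, Hist3h or Hist4h chosen by their mean level, at least 1 TPM over all 47 libraries, where TPM is a value scaled by gene length and library size so that each library sums to 1000000. Of 69 matching symbols, 64 met this rule, out of 35856 symbols in all. They were 5 of 6 H1, 17 of 19 H2A, 17 of 19 H2B, all 12 H3 and all 13 H4 genes. The symbols outside it were Hist1h2aa at a mean of 0.246 TPM, Hist1h2ba at 0.229, Hist1h1t at 0.113, Hist1h2bq at 0.0584 and Hist3h2a at 0, and the members nearest the limit were Hist1h2be at 1.06, Hist1h2al at 1.07 and Hist2h2ab at 1.19. Because the mean TPM chose the members, their overall levels are a description. Classes follow the symbols, and the members Hist1h2al (H2A) and Hist3h2bb-ps (H2B) are annotated as processed pseudogenes. In 3 members (Hist2h2ab, Hist2h2be and Hist3h2bb-ps) the mean over ESC alone was under 1 TPM, so they met the rule through NPC. Their higher level in NPC is therefore given as a description, with no test, and counts of members that rose are also given over the other 61.

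Histone genes of this kind are transcribed strongly during DNA synthesis and encode the proteins that package new DNA. Their messenger RNA usually ends just after a short stem-loop, which is bound by the stem-loop binding protein SLBP, and carries no poly(A) tail, so most of it is lost when RNA is caught on oligo(dT). Some of these genes also give polyadenylated transcripts, known mostly from differentiated cells. H2A, H2B, H3 and H4 form the nucleosome core, and H1 binds the linker DNA between nucleosomes.

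RNA was taken from embryonic stem cells (ESC) of C57BL/6 mice and from their differentiated progeny after 5 days, labelled neural progenitor cells (NPC). ESC were grown with LIF at 100 U/ml and the inhibitors CHIR99021 at 3 µM and PD0325901 at 1 µM, and NPC were made with bFGF at 10 ng/ml for 72 hours and then the Hedgehog agonist SAG at 500 nM for 48 hours. All 4 lines, controls included, expressed Tir1, the plant protein that sends degron-tagged proteins to destruction when auxin is added. One line was untagged, and in the others the auxin-inducible degron AID sat on SUZ12 (SUZ12-AID), MTF2 (MTF2-AID) or JARID2 (AID-JARID2); PRC2, the enzyme complex that methylates histone H3 at repressed genes, needs SUZ12 as a core part, while MTF2 and JARID2 are accessory parts. Each line was taken untreated and with the auxin indole-3-acetic acid at 50 µM, for 12 hours in ESC and for 5 days in NPC. This gave 16 groups of 3 libraries, except 2 for SUZ12 NPC with auxin. Auxin removes the protein and not its RNA, so RNA levels do not check the depletion, and the labels do not give the number of clones behind a line.

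Depth was 3.24 to 8.71 M gene-assigned reads per library (median 5.39 M, where 1 M is 1000000 reads), of which 1305 to 4836 reads fell on the 64 members together. Stem cell markers summed to a median of 3313 TPM in untreated untagged ESC and 18.9 TPM in NPC, where neural progenitor markers summed to 1397 TPM and neuron markers to 4689 TPM, so the NPC libraries held neuron transcripts too. In these bulk libraries fewer cells of a type and less RNA per cell cannot be told apart.

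The stem-loop itself was searched for in the GENCODE M21 models of the members on GRCm38 (mm10), as a 16-base stretch beginning with GG whose 6-base stem arms are complementary around a 4-base loop that begins TT. It is shown because it marks the end of the form without a poly(A) tail. Of 62 members with a coding model, 48 had a model reaching 40 bases or more past the stop codon, and 41 of these held the letters, 22 to 59 bases after the stop codon. The 6 versions found are printed below, with the stem arms in capitals and the loop in lower case.
24 H1, H2A, H2B and H3 members: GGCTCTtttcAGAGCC
7 H4 members: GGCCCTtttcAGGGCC
Hist1h2bk, Hist1h2bb, Hist1h3c, Hist1h3e and Hist1h3f: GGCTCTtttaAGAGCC
Hist1h4i and Hist2h4: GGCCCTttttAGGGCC
Hist1h4b and Hist1h4j: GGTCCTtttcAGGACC
Hist2h2ac: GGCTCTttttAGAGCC

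The arms thus differed mainly by class, with 9 H4 members holding a version beginning GGCCCT. In 20 of the 41 members the model ran 100 bases or more beyond the stem-loop, and in 11 of these the polyadenylation signal letters AATAAA stood in that stretch. Hist3h2ba, described below, was among them, with AATAAA 143 bases after its stem-loop. How far the deposited values cover such extensions was read from gene lengths. The gene length implied by the steps between low TPM values of a gene equalled the RefSeq gene span in 47 members, and RefSeq genes ended 0 to 20 bases past the stem-loop in 37 of 38 members that could be placed (median 5 bases; Hist1h3e 428 bases). For 31 members both could be read, and the counted span ended within 20 bases past the stem-loop in all 31. Whether a read came from a tailed or an untailed transcript was not measured, and "polyadenylated" rests on the oligo(dT) selection alone.

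The members lay on chromosome 13 (50 of the 63 matched to RefSeq), chromosome 3 (10), chromosome 11 (2) and chromosome 6 (1). Many are near-identical. In 32 members over 50% of all 50-base windows of the model also occurred in a GENCODE model of another gene, and the median share was 51.0%. That other gene was not always a matching histone symbol, as with Gm20634 for Hist2h2aa2. Only Hist1h1a, Hist1h1b and Hist2h2be shared no window. Hist1h2ap and Hist1h2ao shared 93.1% and 93.5% of theirs, mostly with each other, and Hist2h2aa2 shared 100%. These shares are over whole GENCODE models, whose length equalled the implied gene length in only 1 member. Where the model runs far past the counted span, a low share does not show that the counted part is unique. Hist1h4d, for example, shared 10.2% over a model of 1138 bases, against an implied length of 368. Shares over the counted span alone were not measured. How reads matching several genes were counted is not given in the sources used here, so values of single members with large shared parts are uncertain, and Hist1h2ap and Hist1h2ao are best read together.

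Summed TPM and level of single members were dominated by H2A. The 64 members summed to a median of 1722 TPM in the 24 ESC libraries (1513 to 1873) and 2796 TPM in the 23 NPC libraries (1869 to 3330), so the ranges overlap at their ends. H2A took 71.9% of the members' mean TPM, H2B 9.12%, H4 8.21%, H3 7.80% and H1 2.98%. Hist1h2ap, at a mean of 631 TPM, and Hist1h2ao, at 540 TPM, made up most of the H2A sum, followed by Hist1h2ad at 154 TPM. The highest members of the other classes were Hist3h2ba for H2B (58.0 TPM), Hist1h4d for H4 (48.8), Hist1h3g for H3 (26.5) and Hist1h1c for H1 (21.1). The median member stood at 9.62 TPM.

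In untreated untagged cells the H2A sum was 1136 ± 24.1 TPM in ESC and 2378 ± 85.3 TPM in NPC (SD, n = 3), and the H2B sum was 169 ± 11.5 and 316 ± 37.1 TPM. The H3 sum was 211 ± 28.8 TPM in ESC and 163 ± 10.6 TPM in NPC, and the H4 sum was 199 ± 2.30 and 199 ± 9.26 TPM. H1 members summed to 78.4 ± 6.34 and 101 ± 6.17 TPM. The groups did not overlap for H1, H2A, H2B or H3, and H4 overlapped. The H2A sum was thus 5.45 ± 0.713 times the H3 sum in ESC and 14.6 ± 1.04 times in NPC, although a nucleosome holds these proteins in equal number. Without Hist1h2ap and Hist1h2ao the sum of all members was 991 ± 25.3 TPM in ESC and 1405 ± 73.0 TPM in NPC.

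**Figure D1:**
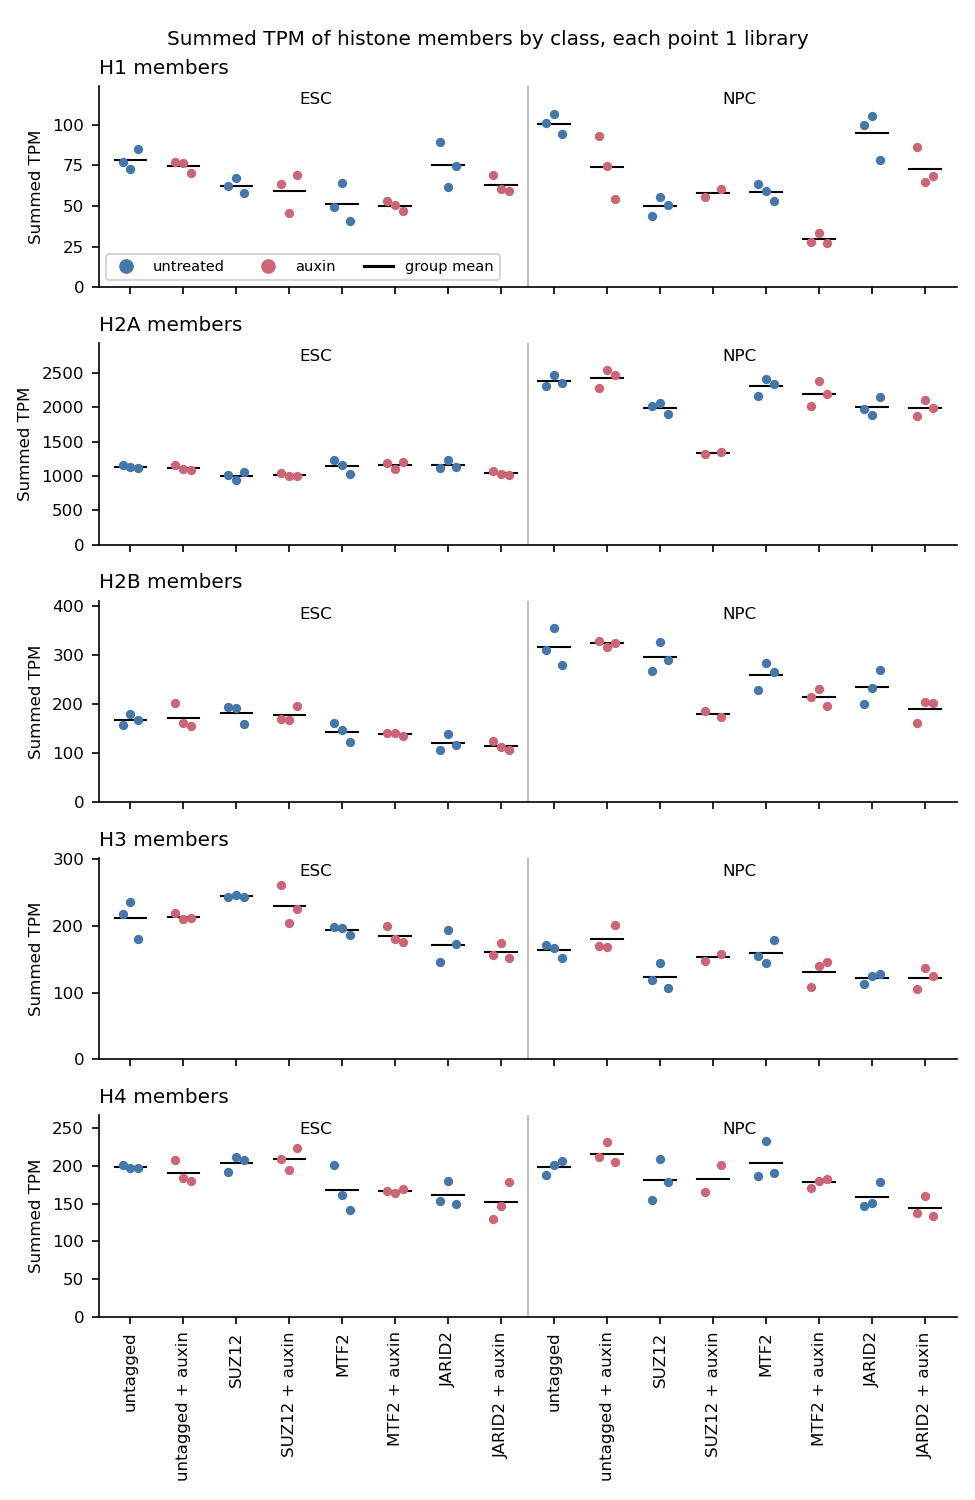
Summed TPM of the members of each histone class (5 panels, linear axes starting at 0) in each of the 47 libraries, with ESC to the left and NPC to the right of the grey line and black bars for group means. The H2A sums of all NPC libraries stand above those of all ESC libraries (highest 1240 TPM), with the lowest NPC sums in SUZ12 NPC with auxin (1316 and 1352 TPM), the H2B sums overlap between the stages, and the H3 sum of the untagged line is 211 TPM in ESC and 163 TPM in NPC.

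Neighbouring H2A and H2B genes differed widely in level in some pairs and little in others. The matching symbols formed 9 divergent H2A and H2B pairs with starts 164 to 281 bases apart, and the H2A partner had the higher mean in 7. Hist1h2ao at 540 TPM faced Hist1h2bq at 0.0584 TPM, Hist1h2ad at 154 TPM faced Hist1h2bf at 9.99 TPM, and Hist1h2an at 63.9 TPM faced Hist1h2bp at 3.10 TPM. In 4 pairs the levels were nearer, with Hist1h2ak at 26.7 and Hist1h2bn at 16.7 TPM, Hist1h2ae at 25.6 and Hist1h2bg at 17.7 TPM, Hist1h2ai at 7.19 and Hist1h2bl at 5.03 TPM, and the low Hist1h2aa at 0.246 and Hist1h2ba at 0.229 TPM. The H2B partner was higher for Hist1h2ag at 9.95 TPM with Hist1h2bj at 24.7 TPM, and for Hist1h2ah at 4.11 TPM with Hist1h2bk at 11.6 TPM.

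NPC were then compared with ESC in untreated untagged cells, which asks how the members change on differentiation. Tests were run with limma on log2(TPM + 0.5) over all 17760 genes expressed, with Benjamini-Hochberg adjustment, and a gene is called at an adjusted p under 0.05; fold changes are on that log2 scale, which understates low genes. Of the 64 members 13 rose and 4 fell, against 47.6% of all genes higher and 28.5% lower. The share of members called in either direction was thus below that of all genes. Over the 61 members that did not meet the rule through NPC alone, 11 rose and 4 fell. Groups did not overlap in 14 members higher and 14 lower in NPC, against 48.1% and 29.1% of all genes. The median gene moved by 0.28 on the log2 scale and the median member by -0.09. With the samples rescaled by median of ratios, which sets the median gene to 0, 6805 genes were called higher and 6646 lower in place of 8462 and 5055, and members 11 higher and 17 lower, with their median at -0.42.

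By class, 8 of 17 H2A members rose, a share near the 47.6% of all genes, and 0 fell, with a median log2 difference of 0.65, or 0.36 above the median gene. Of 17 H2B members 3 rose and 1 fell (median -0.35), of which Hist3h2bb-ps and Hist2h2be met the rule through NPC, of 12 H3 members 0 rose and 2 fell (median -0.40), and of 13 H4 members 1 rose and 0 fell (median -0.36). Of 5 H1 members 1 rose and 1 fell (median 0.03, or 0.25 below the median gene). Differences between classes were not tested.

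The largest rise was that of Hist3h2ba, an H2B gene outside the large chromosome 13 cluster (RefSeq, GRCm38.p6, chr11:58948911-58949372, plus strand). It stood at 1.86, 2.64 and 3.63 TPM in the 3 ESC libraries and at 159, 179.7 and 135 TPM in the 3 NPC libraries. Every NPC library was far above every ESC library. The log2 difference was 5.66 ± 0.485 (SE; limma, adjusted p = 1.6e-12), with 9 reads in ESC and 609 in NPC. Its neighbour Hist3h2bb-ps, annotated as a processed pseudogene on the minus strand (chr11:58954048-58954512), read 1.84, 0.873 and 0 TPM in ESC and 24.4, 37.0 and 28.6 TPM in NPC. It also shares windows with Hist3h2ba. From 3 reads in ESC and 115 in NPC the pooled ratio was 33.1 (95% exact interval 11.0 to 163, counting error only). Since NPC chose this gene, the difference is a description.

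Hist2h2be, an H2B gene with an implied length of 2667 bases against a median of 485 for members and the only H2B member sharing no window, was low throughout. It was at 0.322, 0.152 and 0.471 TPM in ESC and at 3.16, 4.21 and 3.37 TPM in NPC. The groups were apart in all libraries, and the log2 difference was 2.33 ± 0.291, given with no test because this gene too met the rule through NPC. These 3 H2B genes, with Hist1h2ao and Hist1h2ap, were the members whose 23 NPC libraries all stood above all 24 ESC libraries. The opposite order was shown by 0 members. The share of all genes in either order was not counted, so neither count is read as particular to the members.

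Both abundant H2A genes followed the same direction. Hist1h2ap had 443, 416 and 408 TPM in ESC and 933, 949.8 and 933 TPM in NPC, a log2 difference of 1.15 ± 0.0851 (limma, adjusted p = 7.65e-15). Hist1h2ao had 382, 386 and 371 TPM in ESC and 791, 864 and 781 TPM in NPC, a log2 difference of 1.09 ± 0.0928 (limma, adjusted p = 3.77e-13). Neither overlapped between stages. The other H2A genes that rose were Hist1h2ad, Hist1h2an, Hist1h2ac, Hist1h2ak, Hist1h2ab and Hist2h2aa2. Hist2h2aa2 read 4.32, 2.04 and 4.22 TPM in ESC and 13.6, 8.78 and 9.84 TPM in NPC, apart in all libraries (log2 difference 1.52 ± 0.504, limma, adjusted p = 0.00723). All of its windows recur in models of other genes, most of all Gm20634, so the rise may not be its own alone. It was not called without the second untagged ESC library (limma, adjusted p = 0.0507).

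The linker histone genes went opposite ways. Hist1h1e, which encodes H1.4, had 10.4, 13.0 and 11.3 TPM in ESC and 46.4, 43.5 and 41.0 TPM in NPC (log2 difference 1.88 ± 0.333, limma, adjusted p = 5.3e-06). Hist1h1a, which encodes H1.1, had 14.4, 13.6 and 14.6 TPM in ESC and 6.52, 4.52 and 3.67 TPM in NPC (log2 difference -1.48 ± 0.365, limma, adjusted p = 0.000468). The stages were apart in every library for both genes, in opposite order. Hist1h1c, which encodes H1.2 and is the most abundant H1 member, had 33.1, 24.1 and 32.9 TPM in ESC and 25.9, 36.1 and 30.2 TPM in NPC, and was not called.

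Of the H3 genes, Hist1h3g fell from 35.7, 52.0 and 38.3 TPM in ESC to 27.0, 16.7 and 23.8 TPM in NPC (log2 difference -0.89 ± 0.244, limma, adjusted p = 0.00132). Hist1h3h had 8.79, 14.1 and 8.59 TPM in ESC and 5.31, 4.60 and 4.01 TPM in NPC (log2 difference -1.07 ± 0.417, limma, adjusted p = 0.0204). Neither gene overlapped between stages. The remaining fall was that of the H2B gene Hist1h2bj, with 31.0, 33.1 and 28.3 TPM in ESC and 12.8, 19.2 and 21.0 TPM in NPC (log2 difference -0.81 ± 0.309, limma, adjusted p = 0.018). Hist1h3h was not called without the second ESC or the third NPC library, and Hist1h2bj not without the second ESC or the first NPC library (limma, adjusted p up to 0.101 and 0.110). Of the H4 genes, Hist1h4i rose, from 17.0, 26.2 and 17.7 TPM to 42.6, 44.5 and 52.4 TPM. Hist1h4d, the most abundant H4 member, had 59.4, 61.8 and 49.0 TPM in ESC and 59.0, 63.0 and 62.7 TPM in NPC, which overlap.

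**Figure D2:**
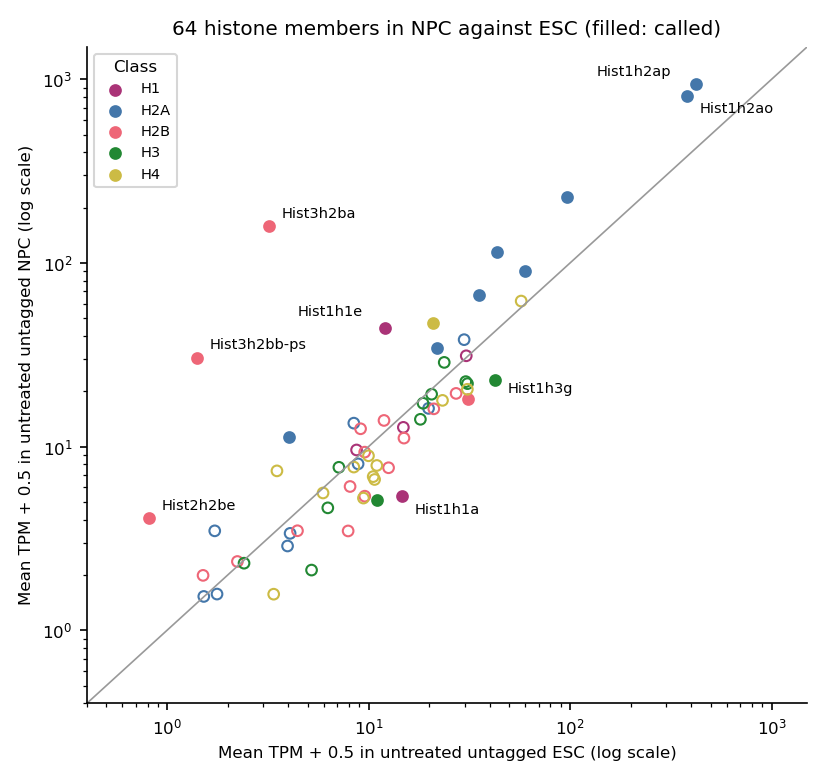
Mean TPM + 0.5 of each of the 64 members in untreated untagged NPC (vertical) against ESC (horizontal), both on log axes, coloured by class, with called members filled and the grey line at equal values. Hist3h2ba stands farthest above the line (2.71 TPM in ESC, 158 TPM in NPC), the abundant H2A genes lie above it, and Hist1h1a (14.2 and 4.90 TPM) lies below.

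Genes that handle histone messages did not move as 1 group in the same comparison. Of 12 genes of stem-loop end processing 5 rose and 2 fell (median log2 difference 0.10), of 15 cleavage and polyadenylation genes 6 rose and 4 fell (-0.03), of 7 histone mRNA decay genes 3 rose and 4 fell (-0.41), and of 8 genes of transcription at histone loci 2 rose and 3 fell (-0.01). Slbp itself was at 115 TPM in ESC and 116 TPM in NPC and was not called, while Lsm11, which joins the U7 particle that directs the cut after the stem-loop, went from 9.09 to 20.3 TPM. Of 18 S phase genes 3 rose and 12 fell (-0.34), among them Mcm5 of the replicative helicase, from 438 to 206 TPM, of 10 mitosis genes 3 rose and 4 fell (0.02), and of 7 cell-cycle exit genes 7 rose and 0 fell (2.82), led by the cell-cycle inhibitor Cdkn1c, from 6.55 to 396 TPM. Among 11 replacement and other non-clustered histones, whose messages are normally polyadenylated, 7 rose and 2 fell (0.52), with H1f0, the linker histone of cells leaving the cycle, at 45.2 TPM in ESC and 334 TPM in NPC. The part of these genes in the members' changes was not tested.

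The stage comparison was repeated in the 3 tagged lines, which share no library with the untagged line or with each other here, though all 47 libraries set 1 spread. In untreated SUZ12 cells 13 members rose and 16 fell (50.2% and 26.6% of all genes), in MTF2 cells 15 and 9 (48.2% and 26.7%), and in JARID2 cells 13 and 13 (47.1% and 26.3%). Over the 61 members kept as above, 11, 13 and 11 rose and 16, 9 and 13 fell. With median-of-ratios scaling 8 rose and 27 fell in SUZ12 cells, 10 and 15 in MTF2 cells and 9 and 19 in JARID2 cells, where all genes split into 6857 higher and 6678 lower, 6860 and 6570, and 6620 and 6455, in place of 8909 and 4724, 8561 and 4739, and 8357 and 4673. With 0 H2A members falling in any line, 7, 8 and 6 of 17 rose in the SUZ12, MTF2 and JARID2 lines, with medians of 0.27, 0.70 and 0.49. Relative to the median gene these were -0.09, 0.40 and 0.21, so the SUZ12 median changes sign with the scaling. Of 12 H3 members 7, 3 and 4 fell, with medians of -0.98, -0.53 and -0.33.

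In all 4 lines 11 members rose, namely Hist1h1e, Hist1h2ab, Hist1h2ac, Hist1h2ad, Hist1h2an, Hist1h2ao, Hist1h2ap, Hist1h4i, Hist2h2be, Hist3h2ba and Hist3h2bb-ps, or 9 without Hist2h2be and Hist3h2bb-ps. Hist1h1a and Hist1h3g fell in all 4, 24 members were called in no line, and 0 were called in opposite directions. Counts across the 4 lines were not made for all genes, so these describe the members only. Hist3h2ba had 3.29, 0.586 and 3.92 TPM in SUZ12 ESC and 159, 168 and 160.2 TPM in SUZ12 NPC. It ranged from 0.935 to 2.20 TPM in MTF2 ESC and from 112 to 131 TPM in MTF2 NPC. In JARID2 cells it ranged from 0 to 3.30 TPM in ESC and from 97.5 to 132 TPM in NPC. The stages were far apart in each line, with log2 differences of 5.95, 5.95 and 6.84 in the SUZ12, MTF2 and JARID2 lines. Hist3h2bb-ps had 0 reads in untreated SUZ12 and MTF2 ESC. Against a floor of 3 reads over the group it was at least 38.4-fold higher in SUZ12 NPC (88 reads) and at least 18.6-fold higher in MTF2 NPC (52 reads). In JARID2 cells it had 1 read in ESC and 52 in NPC, a ratio of 53.1 (95% exact interval 9.11 to 2136).

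Among other members with large log2 differences in these lines, Hist1h1e rose by 2.15 in JARID2 cells, and Hist1h1a fell by 2.18 in SUZ12 and by 1.76 in JARID2 cells. In SUZ12 cells Hist1h1a had 18.0, 25.8 and 19.4 TPM in ESC and 4.54, 5.75 and 2.83 TPM in NPC, with no overlap. Hist2h2be, as a description, had log2 differences of 2.48, 1.89 and 1.65 in SUZ12, MTF2 and JARID2 cells. Hist4h4, an H4 gene apart from the large cluster, and Hist2h2aa1, an H2A gene, rest on few reads. Hist4h4 had 21 reads in SUZ12 ESC and 2 in NPC, an ESC to NPC ratio of 8.02 (95% exact interval 1.96 to 70.6), and 7 and 1 in MTF2 cells, a ratio of 6.53 (0.839 to 294). For Hist2h2aa1 in MTF2 cells, 1 read in ESC and 6 in NPC gave a ratio of 6.43 (0.780 to 296). The last 2 intervals include 1 although limma called both genes, and each of the 3 calls was lost without 1 or more single libraries, for Hist4h4 in SUZ12 cells the third of either stage (limma, adjusted p up to 0.0619).

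Whether the stage effect itself differed between a tagged line and the untagged line was tested directly. By limma 0 members were called for SUZ12, MTF2 or JARID2, against 0.861%, 6.47% and 13.2% of all genes. At an unadjusted p under 0.05 there were 8, 3 and 6 members, counts not set against all genes here. Under voom on reads recovered from the TPM steps 2, 1 and 1 members were called. So the larger number of falling members in SUZ12 cells (16 against 4) is not shown to be a difference between the lines.

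Already without auxin the tagged lines differed from the untagged line in some members; these comparisons share the untagged controls of their stage. In ESC, 1 member was higher and 0 lower in the SUZ12 line (0.47% and 1.18% of all genes), 0 were higher and 5 lower in the MTF2 line (7.32% and 8.39%) and 0 were higher and 2 lower in the JARID2 line (3.09% and 3.22%). In NPC, 0 members were higher and 3 lower in the SUZ12 line (0.668% and 0.146%), 1 was higher and 3 lower in the MTF2 line (6.19% and 2.57%), and 1 was higher and 7 lower in the JARID2 line (11.8% and 12%). Single left-out libraries move several of these counts, as given in the closing section.

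Linker histone genes were called in the MTF2 line at both stages and in SUZ12 NPC. Hist1h1c had 17.0, 12.5 and 11.9 TPM in MTF2 ESC against 33.1, 24.1 and 32.9 TPM in untagged ESC (log2 difference -1.09 ± 0.225, limma, adjusted p = 0.00186). It had 12.3, 14.7 and 15.2 TPM in MTF2 NPC against 25.9, 36.1 and 30.2 TPM in untagged NPC (-1.09 ± 0.204, adjusted p = 0.00207). All MTF2 libraries were thus below all untagged libraries at both stages. Hist1h1e, at 46.4, 43.5 and 41.0 TPM in untagged NPC, had 13.0, 18.4 and 15.3 TPM in SUZ12 NPC (-1.47 ± 0.221, adjusted p = 0.00134) and 28.7, 22.8 and 19.8 TPM in MTF2 NPC (-0.88 ± 0.221, adjusted p = 0.0167). Hist1h1b, which encodes H1.5, had 13.0, 10.4 and 13.3 TPM in untagged NPC and 3.84, 7.35 and 6.19 TPM in SUZ12 NPC (-1.05 ± 0.233, adjusted p = 0.0293). The Hist1h1e difference in MTF2 NPC was lost without untagged library 2 or MTF2 library 2 or 3, and that of Hist1h1b without untagged library 1 or 3 or SUZ12 library 1 or 3 (limma, adjusted p up to 0.0752 and 0.222).

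Of the core histone genes, Hist1h2an was lower in all 3 tagged NPC lines. It had 113, 119 and 112 TPM in untagged NPC, 76.5, 77.5 and 65.9 TPM in SUZ12 NPC (log2 difference -0.64 ± 0.105, limma, adjusted p = 0.00204) and 74.4, 76.4 and 84.0 TPM in MTF2 NPC (-0.55 ± 0.105, adjusted p = 0.00215). In JARID2 NPC it had 74.0, 76.0 and 103 TPM (-0.46 ± 0.105, adjusted p = 0.00258). No tagged library reached the untagged range. Hist1h2bg was lower in ESC of the MTF2 line (16.3, 17.7 and 13.2 TPM) and the JARID2 line (9.80, 14.8 and 11.3 TPM) than of the untagged line (27.7, 28.0 and 24.4 TPM), with adjusted p of 0.017 and 0.00143 by limma. The first was lost without untagged library 1 or 2 or MTF2 library 3 (adjusted p up to 0.0809).

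The remaining calls between untreated lines were smaller or rest on fewer reads, and most were lost without 1 of several single libraries. Hist1h3c was higher in SUZ12 ESC at 39.6, 45.1 and 39.6 TPM than in untagged ESC at 28.6, 28.8 and 32.3 TPM (log2 difference 0.46 ± 0.104, limma, adjusted p = 0.0247). Hist1h2af, Hist2h3c2 and Hist1h2ab were lower in MTF2 ESC by 0.71, 0.57 and 0.38 on the log2 scale. Hist1h4f was lower in JARID2 ESC, with 9 reads against 27 (5.65, 3.19 and 2.92 TPM against 10.8, 11.3 and 9.36 TPM). Hist1h4i was higher in MTF2 NPC at 51.1, 72.4 and 63.0 TPM than in untagged NPC, though their libraries overlapped. In JARID2 NPC, Hist1h2bc was higher at 20.8, 18.9 and 20.2 TPM against 13.4, 13.0 and 9.60 TPM (log2 difference 0.72 ± 0.157, limma, adjusted p = 0.00152). Hist1h4c, Hist1h3a, Hist1h4d, Hist1h2ab, Hist3h2ba and Hist1h2ad were lower there by 0.31 to 1.13. For Hist1h4c, with the difference of 1.13, the libraries of the 2 lines overlapped. Its call was also lost with only the compared groups fitted and with voom.

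Auxin was compared with no treatment within each line and stage. In ESC, after 12 hours, it called few members. In untagged and MTF2 ESC 0 of 63 tested members were called by limma (0.212% and 1.09% of all genes). In SUZ12 ESC 0 members rose and 1 fell (5.89% and 0.94% of all genes), namely Hist1h2bm, an H2B gene, from 16.3, 13.4 and 11.9 TPM to 3.50, 7.20 and 9.51 TPM (log2 difference -1.08 ± 0.318, limma, adjusted p = 0.048). In JARID2 ESC 0 rose and 1 fell (0.113% and 0.185%), namely Hist1h2af, an H2A gene, from 19.4, 16.3 and 16.8 TPM to 7.69, 7.60 and 7.62 TPM (-1.14 ± 0.214, adjusted p = 0.0172). Groups did not overlap in either case. Both calls fail in other settings: Hist1h2bm stayed called with only the third auxin library left out (limma, adjusted p up to 0.235 otherwise), and Hist1h2af was lost without any 1 of the 6 libraries (up to 0.0765) and with voom. Beyond the untagged line, 0 members were called by limma in SUZ12, MTF2 or JARID2 ESC (0.192%, 0.00662% and 0% of all genes).

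In untagged NPC auxin called 0 members and 0 of 16469 genes by limma. At an unadjusted p under 0.05 there were 9 members, a count not set against all genes here and not read as an effect. In SUZ12 NPC 5 members rose and 9 fell, against 23.9% and 33% of all genes. The share of members called was again below that of all genes. The member sum was 2646 ± 135 TPM untreated (n = 3) and 1869 and 1945 TPM in the 2 libraries with auxin. The H2A sum was 1996 ± 79.5 TPM untreated and 1334 ± 25.8 TPM with auxin (SD, n = 2), the H2B sum 295 ± 29.5 and 180 ± 7.75 TPM, and the H3 sum 123 ± 18.8 and 152 ± 6.89 TPM.

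Of the 9 members that fell, 5 were H2A, 3 were H2B genes outside the chromosome 13 cluster and 1 was an H4 gene. Hist3h2bb-ps and Hist2h2be among them met the member rule through NPC, the stage they fell in. Over the 61 members kept as above, 7 fell. Hist3h2ba had 159, 168 and 160.2 TPM untreated and 21.6 and 36.4 TPM with auxin, far apart (log2 difference -2.51 ± 0.176, limma, adjusted p = 5.11e-10). Hist3h2bb-ps had 18.2, 21.8 and 27.9 TPM and 3.58 and 4.72 TPM (-2.30 ± 0.443), given as a description because NPC chose this gene. With auxin both remained above every ESC library. Hist2h2be, likewise as a description, had 4.06, 3.06 and 3.29 TPM untreated and 1.41 and 1.23 TPM with auxin (-1.12 ± 0.256).

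Among the abundant H2A genes, Hist1h2ap had 817, 872 and 763 TPM untreated and 532 and 559 TPM with auxin (log2 difference -0.58 ± 0.0966, limma, adjusted p = 3.1e-05). Hist1h2ao had 715, 683 and 683 TPM and 448 and 497 TPM (-0.56 ± 0.0955, adjusted p = 4.46e-05), and Hist1h2ad had 188, 191 and 179 TPM and 104 and 95.7 TPM (-0.89 ± 0.12, adjusted p = 2.29e-06). None of these overlapped. Hist1h2an, Hist1h2ak and the H4 gene Hist1h4i also fell, by 0.77, 0.53 and 0.38 on the log2 scale. Of 17 H2A members 5 fell and 0 rose (median -0.40, against -0.10 for all genes), of 17 H2B members 3 fell and 2 rose (median 0.25).

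Of the 5 members that rose, Hist1h1a and Hist1h2bj had fallen in the untagged stage comparison and 3 were not called there. In the tagged lines these 3 differed. Hist1h2bc was called higher in NPC in all 3 lines, and Hist1h3c and Hist1h4b were called lower in all 3. Hist1h1a had 4.54, 5.75 and 2.83 TPM untreated and 14.0 and 15.2 TPM with auxin, where untreated ESC had 18.0 to 25.8 TPM in the SUZ12 line and 13.6 to 14.6 TPM in the untagged line (log2 difference 1.68 ± 0.474, limma, adjusted p = 0.00529). Hist1h2bj had 6.31, 13.6 and 11.5 TPM and 30.1 and 28.1 TPM (1.50 ± 0.379, adjusted p = 0.00261). Hist1h4b had 3.76, 2.59 and 5.46 TPM and 13.0 TPM in both libraries with auxin (1.65 ± 0.559, adjusted p = 0.0177), on 15 and 30 reads. Groups were apart for all 3 genes. Hist1h2bc (from 15.7, 17.1 and 15.4 to 35.5 and 26.5 TPM) and Hist1h3c (from 17.6, 14.6 and 11.7 to 27.8 and 28.2 TPM) rose by 0.91 and 0.93. Hist1h4b was not called without untreated SUZ12 NPC library 2 or either library with auxin (limma, adjusted p up to 0.0741).

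**Figure D3:**
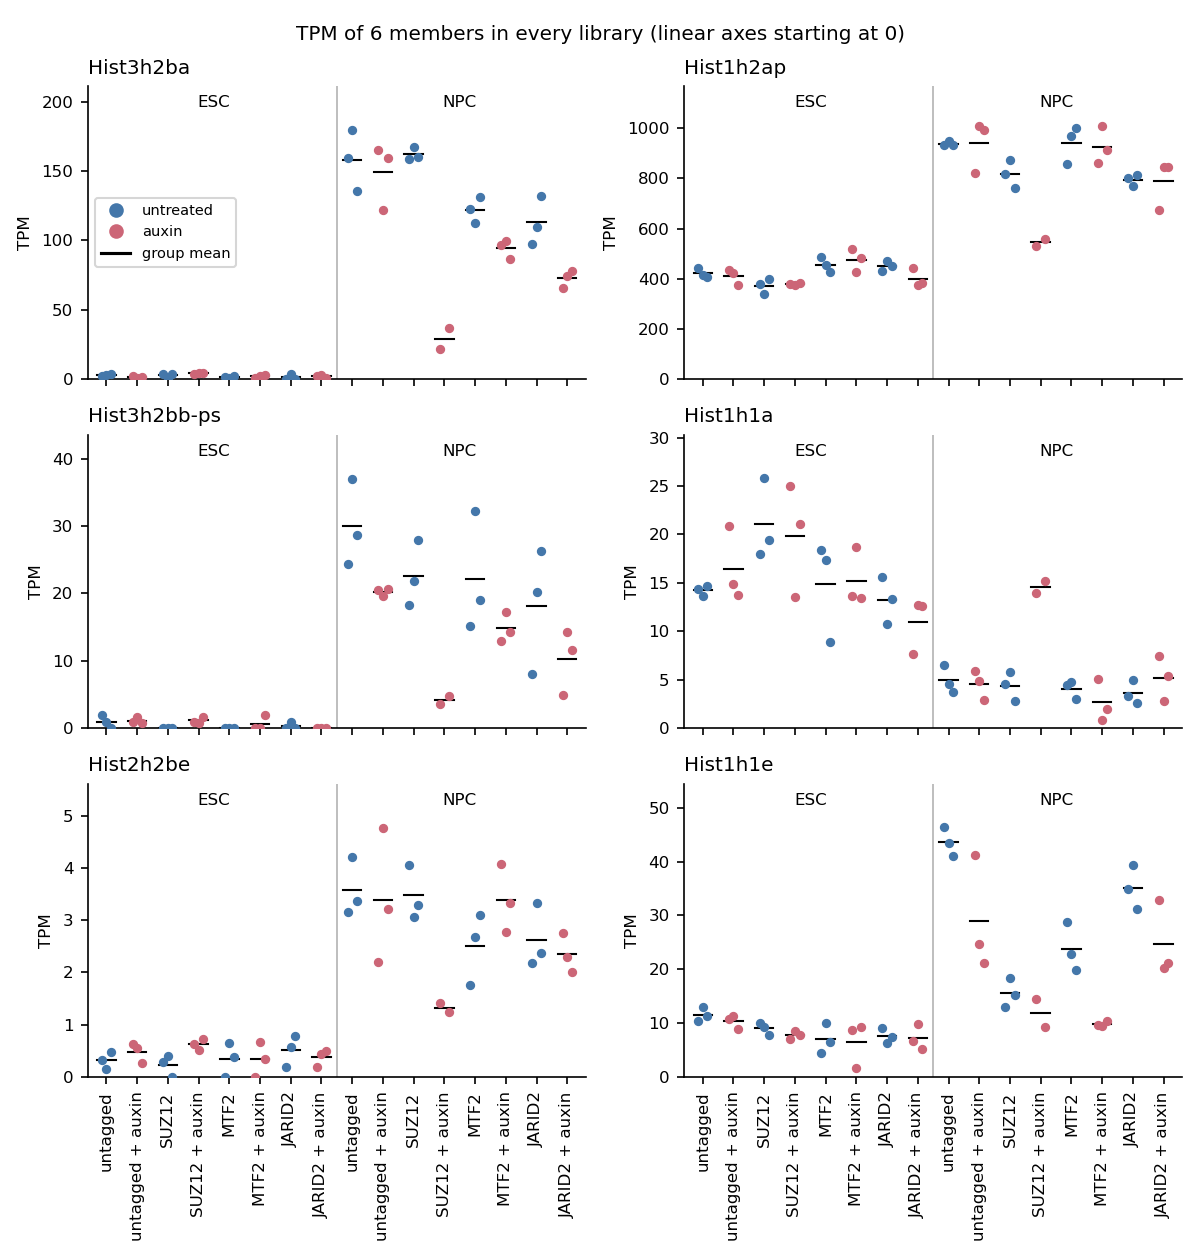
TPM of 6 members in all 47 libraries on linear axes starting at 0, with untreated libraries in blue, auxin libraries in red and black bars for group means. Hist3h2ba, Hist3h2bb-ps, Hist2h2be and Hist1h2ap are higher in NPC and lower in SUZ12 NPC with auxin (for Hist3h2ba 21.6 and 36.4 TPM), Hist1h1a has the reverse order, and Hist1h1e varies between the untreated NPC lines.

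Calls in SUZ12 NPC with auxin were set against the untagged stage comparison, with which they share no library. Of the 13 members that rose from untagged ESC to NPC, 9 (69.2%) fell with auxin in SUZ12 NPC and 0 rose; of the 8460 genes of any kind that rose, 57.1% fell and 8.26% rose. Without Hist2h2be and Hist3h2bb-ps it was 7 of 11 (63.6%). All 9 members that fell with auxin (100%) had risen with differentiation, as had 88.9% of all genes that fell. Of the 4 members that fell with differentiation, Hist1h1a and Hist1h2bj (50%) rose with auxin, against 59.7% of such genes in the whole table. Across the 64 members the log2 differences of both comparisons had a Pearson r of -0.77 and a Spearman rho of -0.64, and without Hist3h2ba, Hist3h2bb-ps and Hist2h2be an r of -0.59 (n = 61). Over all 16469 genes r was -0.70; genes are not independent replicates.

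Cell type markers moved the same way in these libraries. With auxin the SUZ12 NPC libraries had a stem cell marker sum of 546 to 559 TPM against 11.8 to 17.3 TPM untreated (6 of 6 genes higher), a neural progenitor sum of 175 to 186 against 1442 to 1576 TPM (6 of 6 lower) and a neuron sum of 413 to 464 against 4434 to 4683 TPM (8 of 8 lower). Markers of other lineages summed to 162 to 169 against 174 to 178 TPM, with 6 of 8 tested genes higher and 1 lower. No listed marker of these 4 lists was at 0 in all libraries of either group. Of 18 S phase genes 7 rose and 2 fell, of 7 cell-cycle exit genes 1 rose and 5 fell, of 10 mitosis genes 3 rose and 3 fell, of 11 replacement histones 2 rose and 6 fell, and of 12 stem-loop processing genes 1 rose and 2 fell. Of 15 cleavage and polyadenylation genes 0 rose and 3 fell, of 8 genes of transcription at histone loci 1 rose and 2 fell, and of 7 decay genes 4 rose and 1 fell. The part of the cell mixture or the cell cycle in the members' changes was not tested.

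**Figure D4:**
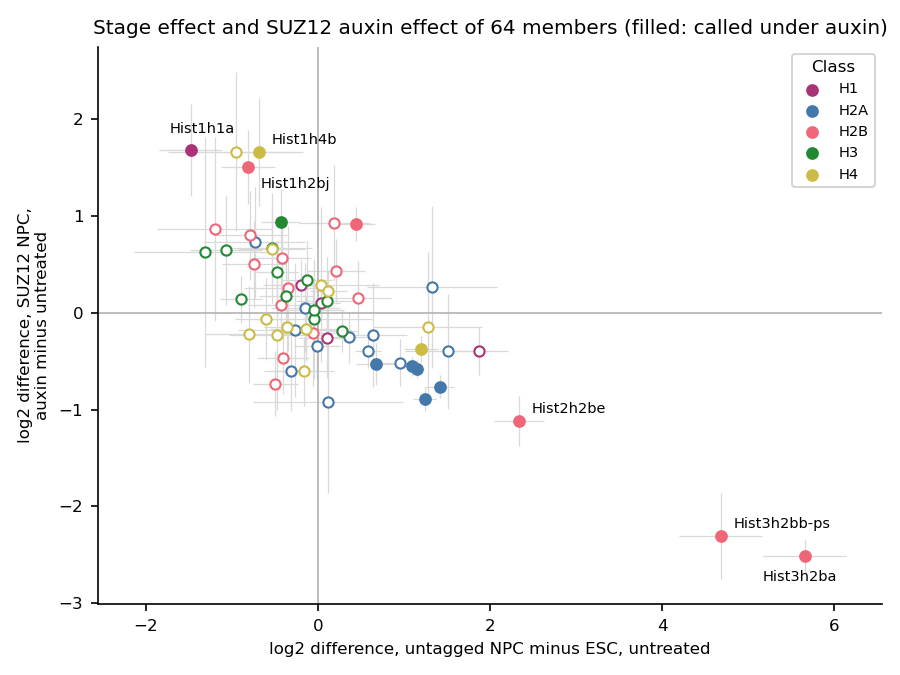
Log2 difference of each of the 64 members between auxin and untreated SUZ12 NPC (vertical) against its log2 difference between untreated untagged NPC and ESC (horizontal), with standard errors as grey bars, colours for class and filled points for members called under auxin. The 9 filled points below 0 all lie right of 0, led by Hist3h2ba at 5.66 and -2.51, and Hist1h1a lies at -1.48 and 1.68.

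Beyond the auxin effect of the untagged NPC, 3 members were higher and 8 lower in SUZ12 NPC (18.8% and 24.7% of all genes). The 8 include Hist3h2bb-ps and Hist2h2be, which met the member rule through NPC, so their part in this count is a description. The change of Hist3h2ba was -2.42 ± 0.236 (limma, adjusted p = 1.16e-07) and that of Hist1h1a 1.79 ± 0.636 (adjusted p = 0.0286). The Hist3h2ba difference held without any 1 of the 11 libraries, while that of Hist1h1a was lost without any 1 of 5 libraries, among them each SUZ12 NPC library with auxin (adjusted p up to 0.0824). Hist1h1b was also higher there, by 1.02, and the untagged line contributed to this with 13.0, 10.4 and 13.3 TPM untreated and 8.75, 6.10 and 6.73 TPM with auxin.

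In MTF2 NPC auxin lowered 5 members and raised 0, against 3.11% and 5.03% of all genes. The H1 class stood lowest of all groups here, with a sum of 29.5 ± 3.34 TPM against 58.7 ± 4.98 TPM untreated (SD, n = 3) and no overlap. Hist1h1b had 11.2, 11.7 and 9.74 TPM untreated and 2.73, 2.32 and 1.86 TPM with auxin (log2 difference -2.03 ± 0.233, limma, adjusted p = 1.71e-05), on 46 and 9 reads. Hist1h1e had 28.7, 22.8 and 19.8 TPM and 9.72, 9.43 and 10.4 TPM (-1.21 ± 0.221, adjusted p = 0.00202). Both genes were apart in all libraries and stayed called without any 1 library. Hist1h1a, Hist1h1b, Hist1h1c and Hist1h1d all had their lowest group mean of the 16 groups in MTF2 NPC with auxin, between 2.31 TPM for Hist1h1b and 10.7 TPM for Hist1h1c.

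The other 3 members that fell in MTF2 NPC were the H3 genes Hist1h3e and Hist2h3c2 and the low Hist1h2al. Hist1h3e went from 22.9, 24.2 and 21.1 to 11.5, 14.4 and 9.44 TPM (log2 difference -0.94 ± 0.233, limma, adjusted p = 0.017). Hist2h3c2 went from 31.0, 23.0 and 34.0 to 14.2, 15.2 and 21.6 TPM (-0.78 ± 0.195, adjusted p = 0.0178). The symbol Hist1h2al, classed with H2A, is annotated as a processed pseudogene and has an implied length of 2983 bases. Hist1h2al had 1.41, 1.91 and 1.85 TPM and 0.728, 0.412 and 0.743 TPM (-0.99 ± 0.294, adjusted p = 0.0418) and was lost without any 1 of the 6 libraries (adjusted p up to 0.132). Hist1h3e was lost without untreated library 2 or auxin library 1 or 3, and Hist2h3c2 without untreated library 1 or 3 or auxin library 1 or 2 (limma, adjusted p up to 0.0835 and 0.0837). Untagged NPC with auxin also had a median H1 difference of -0.64 with 0 of 5 called. Beyond the untagged line 0 members were called in MTF2 NPC by limma (1.4% of all genes). At an unadjusted p under 0.05 there were 10 members, a count not set against all genes here. An auxin effect on H1 genes particular to the MTF2 line is therefore not shown.

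In JARID2 NPC auxin lowered 5 members and raised 0, against 15.7% and 9.28% of all genes. Hist3h2ba had 97.5, 109.7 and 132 TPM untreated and 65.5, 74.1 and 78.2 TPM with auxin, with no overlap (log2 difference -0.63 ± 0.157, limma, adjusted p = 0.00609), and this held without any 1 library. Hist1h2bb, an H2B gene, had 5.06, 7.46 and 8.96 TPM and 0.936, 1.04 and 5.46 TPM, where 1 auxin library lay within the untreated range (-1.66 ± 0.409, adjusted p = 0.00527). Hist1h4k had 9.09, 16.6 and 13.1 TPM and 6.73, 6.24 and 7.64 TPM (-0.83 ± 0.297, adjusted p = 0.0476). Hist1h4i fell from 37.9, 41.5 and 41.1 TPM to 30.7, 33.0 and 29.9 TPM (-0.36 ± 0.119, adjusted p = 0.0293), and Hist1h2an from 74.0, 76.0 and 103 TPM to 70.8, 58.3 and 72.9 TPM (-0.31 ± 0.105, adjusted p = 0.0345). The last 3 were lost under median-of-ratios scaling, without the filter on low values and with voom. Hist1h4k was also lost without any 1 of the libraries other than untreated library 1, Hist1h4i without untreated library 2 or 3 or auxin library 1 or 3, and Hist1h2an without untreated library 3 or auxin library 2 (limma, adjusted p up to 0.182, 0.0907 and 0.243). Beyond the untagged line 0 members were higher and 3 lower (3.1% and 5.94% of all genes), namely Hist1h2bb, Hist1h4k and Hist1h2ah.

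Promoters were compared because members that moved together may share sequence there. RefSeq promoter windows (GRCm38.p6, 300 bases ending 50 bases after the start) matched 56 of the 64 members; Hist2h2be, Hist3h2bb-ps and Hist1h2ap were among the 8 unmatched. The TATA box letters TATAAA, searched on both strands as were the other motifs, were in 33 of 56 member windows, against 13.6% of 32851 windows in the table. The letters CCAAT, a site of the factor NF-Y, were in 47 of 56 against 37.4%. Every H1 (5), H2A (15), H2B (14) and H3 (10) window held CCAAT, and 3 of 12 H4 windows did. The octamer core TTTGCAT was in 11 of 56 against 4.63%: 5 of 15 H2A, 5 of 14 H2B, 1 of 12 H4 and 0 of the H1 and H3 windows. None of the motifs contains another, and a match describes letters, not binding. The windows of divergent H2A and H2B pairs overlap, and a site in the overlap counts for both partners. In the pairs Hist1h2ae with Hist1h2bg and Hist1h2ah with Hist1h2bk each window held 1 octamer match. The member counts are therefore not counts of independent windows.

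The windows of Hist3h2ba, the member with the largest rise in untagged NPC, and of Hist1h1a, the one with the largest fall, are printed with TATAAA and CCAAT letters of either strand in capitals. Hist3h2ba (chr11:58948661-58948960, plus strand) held 4 CCAAT and 2 TATAAA matches, and Hist1h1a (chr13:23763418-23763717, plus strand) held 1 of each.
Hist3h2ba: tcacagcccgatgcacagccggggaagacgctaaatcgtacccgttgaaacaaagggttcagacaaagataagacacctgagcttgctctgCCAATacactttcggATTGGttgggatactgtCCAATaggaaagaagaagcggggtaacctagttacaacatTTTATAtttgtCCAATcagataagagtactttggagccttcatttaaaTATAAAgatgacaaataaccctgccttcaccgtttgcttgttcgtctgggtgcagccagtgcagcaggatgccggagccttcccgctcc
Hist1h1a: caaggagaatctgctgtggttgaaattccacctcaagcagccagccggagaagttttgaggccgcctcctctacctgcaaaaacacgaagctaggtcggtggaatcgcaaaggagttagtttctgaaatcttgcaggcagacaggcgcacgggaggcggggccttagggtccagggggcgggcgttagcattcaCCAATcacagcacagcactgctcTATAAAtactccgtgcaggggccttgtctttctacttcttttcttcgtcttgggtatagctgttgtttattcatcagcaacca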

How the data were processed

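Strand-specific libraries of oligo(dT)-selected RNA were aligned with STAR 2.6.1d to mm10, per the submitters' processing notes; no source used here names the counting tool, the annotation or the treatment of reads matching several genes. The deposited values are TPM per gene symbol, made by the authors. Each library sums to 1000000, and the low values gave whole reads for 100% of genes above 0, within 0.001 of a whole number, from which depth was taken. Members and gene lists were chosen with earlier results of these data known.

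Groups follow the labels. For NPC of the MTF2 and JARID2 lines the titles say day 0 and every other label NPC, which was followed. Replicates are biological according to the series text. A gene entered a fit if 2 or more libraries reached 1 TPM. Fits were made with limma 3.58.1 in R 4.3.3 (trend and robust options of eBayes) on TPM + 0.5 in log2 units, two-sided, with Benjamini-Hochberg adjustment over all genes: 17760 genes and 47 libraries for stage effects, 15104 (ESC) or 16469 (NPC) for auxin and line effects, in 27 comparisons. Hist2h2be failed the filter in ESC. Gene lists (12 lists, 118 genes) are described by counts only. On simulated data with 200 genes changed 2-fold, 93% were recovered in the untagged stage comparison and 95.5% in the untagged auxin comparison of each stage. Of the genes called, 4.12% were false for stage, 6.83% for auxin in ESC and 4.98% for auxin in NPC. The changed genes were drawn only from those averaging above 5 in TPM + 0.5, with normal noise added. Recovery of lower members, or with as many changed genes as in the real stage comparison, was not measured.

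Given with every library value were the top member of each class, up to 5 called members with the largest rise and 5 with the largest fall in the untagged stage comparison, and up to 5 in others; Hist1h2ad, Hist1h2ao and some other called members were added for description after their values were seen. Alternatives were median-of-ratios scaling, pseudocounts of 1 and 0.1, testing without the filter, the compared groups alone, a replicate block, voom on recovered reads, all 69 symbols, members at 5 TPM or more, and each library left out. Sequences are from RefSeq (GRCm38.p6) and GENCODE M21.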

Additional observations from a re-analysis of the deposited data

Results flagged for a closer look

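The following members had auxin effects in NPC that differed between a tagged line and the untagged line by the limma contrast of both effects; values are log2 differences beyond the untagged line, and all comparisons share the untagged controls. In SUZ12 NPC these were Hist3h2ba (-2.42), Hist3h2bb-ps (-1.77), Hist1h2bg (-1.18), Hist1h2ad (-1.01), Hist2h2be (-1.01), Hist1h2ao (-0.62), Hist1h2an (-0.60) and Hist1h2ap (-0.58) on the lower side, and Hist1h1a (1.79), Hist1h2bj (1.32) and Hist1h1b (1.02) on the higher side. Hist1h2bg went from 19.0, 24.3 and 13.6 TPM to 12.6 and 9.46 TPM in SUZ12 NPC and from 16.7, 23.4 and 16.9 TPM to 19.7, 26.1 and 33.4 TPM in untagged NPC, and Hist1h1b and Hist1h2bg were not called for auxin within the SUZ12 line itself. The values of Hist3h2bb-ps and Hist2h2be are a description, since both met the member rule through NPC. With 1 library left out at a time, the SUZ12 call was lost for Hist1h2bj without any of 8 of the 11 libraries. It was lost without any of 7 for Hist1h2bg and 5 for Hist1h1a (limma, adjusted p up to 0.117 for Hist1h2bj, 0.156 and 0.0824). For Hist3h2bb-ps it was lost without any of 3.

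In JARID2 NPC they were Hist1h2bb (-2.46), Hist1h2ah (-2.40) and Hist1h4k (-1.60). In each, the untagged mean was higher with auxin and the JARID2 mean lower. Hist1h4k had 10.3, 7.31 and 7.65 TPM untreated and 14.3, 16.3 and 13.1 TPM with auxin in untagged NPC. Hist1h2ah rests on 10 and 20 reads in untagged NPC and 18 and 9 reads in JARID2 NPC. It lost its call without any of 9 of the 12 libraries, and Hist1h4k without any of 3 (limma, adjusted p up to 0.111 and 0.0535).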

How the results depend on the processing

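No named value changed direction under any alternative. Of 69 results on named members, 33 stayed called under every setting and left-out library, 25 were lost under at least 1 other setting and 34 with at least 1 library left out. Same-numbered libraries share only a number (0 of 18 comparisons had every correlation over 0.1; in 4 every library correlated best with its own number).

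Counts of members called (main value first) moved as follows; the cause was not tested. Compared groups alone: beyond untagged JARID2 NPC 3 to 1, MTF2 NPC 0 to 2, SUZ12 NPC 11 to 19; auxin SUZ12 ESC 1 to 2, SUZ12 NPC 14 to 22; difference of stage effects JARID2 0 to 1, SUZ12 0 to 2; line MTF2 ESC 5 to 3, SUZ12 ESC 1 to 2; stage lower untagged 4 to 16. Median of ratios: beyond untagged MTF2 NPC 0 to 1; auxin JARID2 NPC 5 to 2, SUZ12 ESC 1 to 2; stage difference JARID2 0 to 1; line JARID2 NPC 8 to 5; stage higher SUZ12 13 to 8; stage lower MTF2 9 to 15, SUZ12 16 to 27, untagged 4 to 17; genes called in SUZ12 NPC auxin 4807 higher and 4555 lower in place of 3931 and 5437, members' median 0.09 in place of -0.02; MTF2 stage median -0.15 in place of 0.19. No filter: auxin JARID2 NPC 2, SUZ12 ESC 0; line JARID2 ESC 1, NPC 5. Pseudocount 0.1: beyond untagged MTF2 NPC 1; pseudocount 1: stage difference JARID2 1. Replicate block, both numberings: auxin SUZ12 ESC 1 to 0, line SUZ12 ESC 1 to 2; it lost 2 of the 69 results, Hist1h2bm in SUZ12 ESC and Hist1h4k in JARID2 NPC, both for auxin. Voom: auxin JARID2 ESC 0, JARID2 NPC 2, MTF2 NPC 3, SUZ12 ESC 3; stage difference JARID2 1, MTF2 1, SUZ12 2; line JARID2 ESC 1, MTF2 ESC 3, SUZ12 NPC 5; stage lower MTF2 14, SUZ12 27, untagged 13.

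Leaving out 1 library gave these ranges. Stage lower: untagged 2 (without ESC library 2) to 7 (NPC library 2), MTF2 5 (ESC 1) to 10, JARID2 8 (NPC 1) to 11. Difference of stage effects: JARID2 0 to 2 (2 without JARID2 ESC 2; 1 without untagged ESC 1, JARID2 ESC 1, NPC 1 or NPC 3), MTF2 0 to 1 (1 without MTF2 ESC 3 or untagged NPC 1). Auxin: SUZ12 ESC 0 to 1 (1 without auxin library 3), JARID2 ESC 0 (any), MTF2 NPC 3 to 4 (3 without untreated 2 or 3 or auxin 1 or 3), JARID2 NPC 4 to 8 (8 without untreated 1). Beyond untagged: SUZ12 NPC 7 (without auxin 2) to 11, MTF2 NPC 0 to 1 and JARID2 NPC 1 to 3 (1 for both without untagged auxin 2; for JARID2 also untreated 2). Line: SUZ12 ESC 0 to 1 (1 without untagged 3), MTF2 ESC 1 to 7 (1 without untagged 1 or MTF2 3; 3 without untagged 2), JARID2 ESC 1 to 2 (1 without any untagged library), MTF2 NPC 2 to 4 (2 without untagged 2 or MTF2 2 or 3), JARID2 NPC 3 to 8 (3 to 5 without any untagged library or JARID2 1 or 2). An arm left with 1 library was taken to vary like the others. Near 1 TPM a member rests on few reads.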
